A study of Mus musculus with 37 samples.

Results

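The enzymes described here are 10 genes of the mitochondrial β-oxidation spiral, measured in the livers of mice given HFPO-DA. They are Acadvl, Acadl, Acadm and Acads, which encode acyl-CoA dehydrogenases; Hadha and Hadhb, the subunits of the trifunctional protein; Hadh; the auxiliary enzymes Decr1 and Eci1; and Etfdh, which passes the electrons on. The genes were taken by name, and every probe that carries 1 of their symbols was kept, which gave 16 of the 30146 probes and 10 of the 21450 gene symbols in the table. The 10 genes were chosen with earlier results of these data known. All 16 probes had enough counts to be tested, and the values that follow are those of the probe with the most counts in each gene unless another is named.

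HFPO-DA (hexafluoropropylene oxide dimer acid) is a short-chain perfluoroalkyl ether acid, given here as its ammonium salt. The animals were male and female CD1 mice of an outbred stock, labelled WT, that were gavaged once daily with HFPO-DA at 5, 0.5 or 0.1 mg/kg or with the vehicle, deionized water (0 mg/kg). Males were about 6 weeks old at the start and received 84 to 85 doses, from 70 days before mating through the 14 days of the mating period, whereas females were about 11 weeks old and received 53 to 65 doses, from 14 days before mating to lactation day 20 or 21. From 0 mg/kg to the highest dose the groups held 5, 5, 5 and 4 males and 5, 5, 4 and 4 females, since 3 of the 40 mice sampled had been left out by the authors on the quality of their libraries. Each sample was scraped from formalin-fixed, paraffin-embedded liver sections of 1 mouse and assayed by TempO-Seq, in which probe pairs are ligated on their target transcript and then amplified and counted. Sex, age, number of doses and reproductive state change together in this design and cannot be told apart.

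In β-oxidation a fatty acyl-CoA in the mitochondrial matrix is dehydrogenated, hydrated, dehydrogenated again and cleaved, so that each turn releases acetyl-CoA and leaves a shorter acyl-CoA. The acyl-CoA dehydrogenases differ in the chain length they prefer and hand their electrons to the electron transfer flavoprotein, and unsaturated fatty acids need additional enzymes that move or reduce their unsaturated bonds. In liver the pathway supplies energy and the acetyl-CoA for ketone bodies during fasting, and many of its genes are known targets of the nuclear receptor PPARα.

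The 19 male libraries held 2101495 to 10548222 counts and the 18 female libraries 7952605 to 13878254, and 4 males had under 5000000, of which 1 received 0.1 mg/kg, 1 received 0.5 mg/kg and 2 received 5 mg/kg. Values are CPM, the count of a probe per 1000000 counts of the TMM-normalized library. A gene was called when edgeR's quasi-likelihood test gave an adjusted p under 0.10 over 18570 probes, and changes are given as log2 fold changes. The 7 hepatocyte markers with a probe had counts in every group. Their summed level was lower at 5 mg/kg than at 0 mg/kg, with 12480 to 15100 against 16870 to 22280 CPM in males and 16140 to 19330 against 19930 to 25960 CPM in females, and 4 of the 7 were called lower in males and 3 in females, among them Ass1. Over all probes 8.49% were called lower in males and 2.26% in females. In bulk tissue fewer cells of a type and less RNA per cell cannot be told apart, and the part of these markers in the results below was not tested.

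At 5 mg/kg most enzymes of the spiral rose. In males 8 of the 10 genes were called higher, against 4.21% of all probes tested, and in females 9 of the 10 were called higher, against 2.26%. No member was called lower in either sex, while 8.49% of the probes were in males and 2.26% were in females, and no member had an unadjusted p under 0.05 in that direction in edgeR or a call in DESeq2. The median log2 fold change of the 10 genes was 1.30 in males and 1.27 in females, and the medians over all 12996 genes tested were -0.11 and -0.02. Every mouse at 5 mg/kg lay above every control of its sex for 7 of the 10 genes in males, where 2.78% of the probes did so, and for 9 of the 10 in females, where 4.4% did. The genes not called were Hadh in both sexes and Acads in males.

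**Figure D1:**
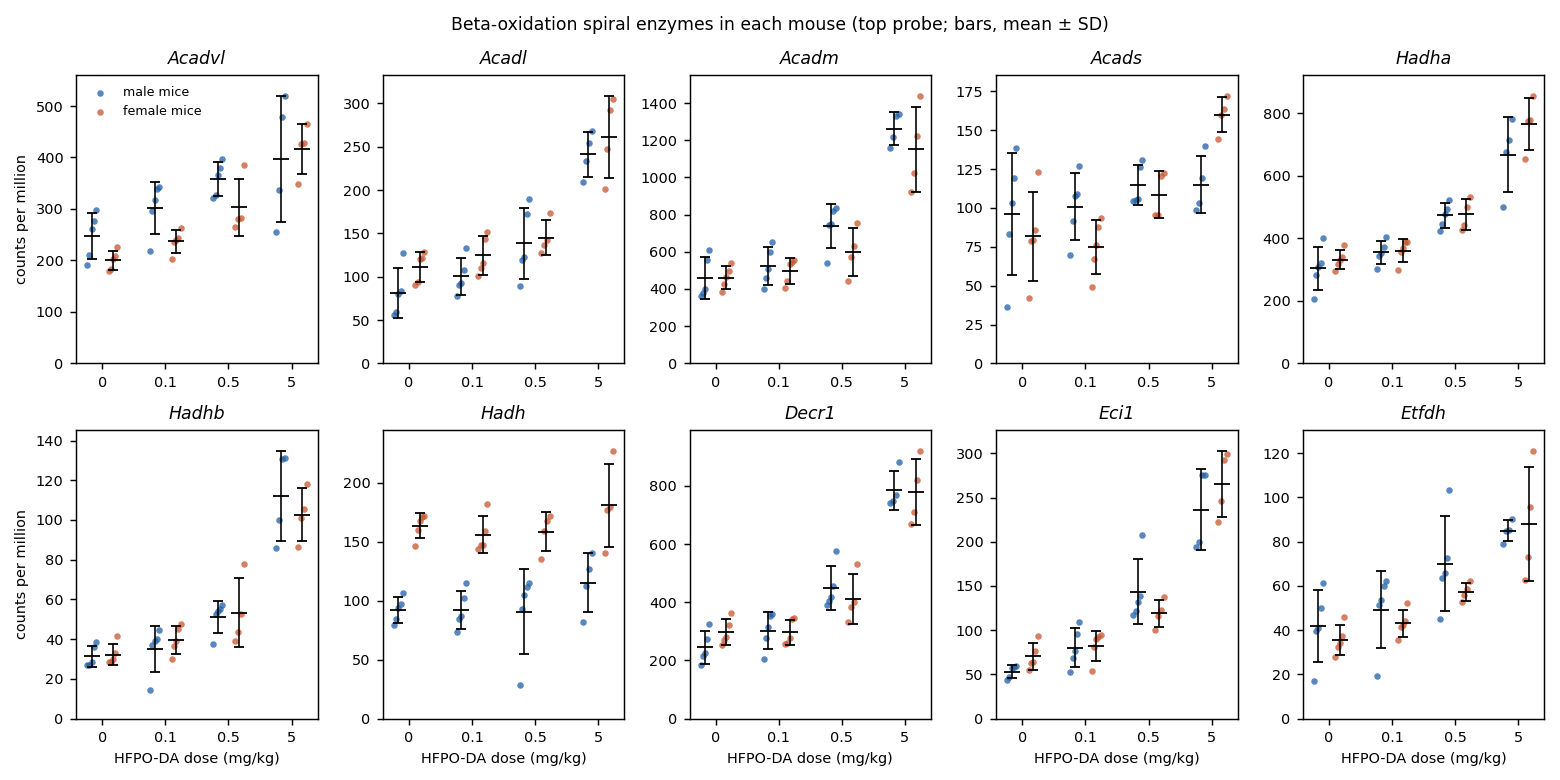
Level of each of the 10 enzymes in CPM (y axis, linear from 0) against HFPO-DA dose in mg/kg (x axis, equally spaced), with 1 point per mouse, males in blue and females in orange, and bars for the mean ± SD. Acadm rose from a mean of 460.2 to 1263 CPM in males and from 462 to 1152 CPM in females, while Hadh had a higher mean in females than in males at each dose and was not called at any dose.

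Acadvl encodes the very long-chain acyl-CoA dehydrogenase, which sits on the inner mitochondrial membrane and opens the spiral for the longest substrates. Its level in control males was 192, 211, 261, 276 and 297 CPM and at 5 mg/kg 256, 336, 478 and 519 CPM. The lowest male at 5 mg/kg lay inside the control range, and the change was the smallest of those called in males, with a log2 fold change of 0.68 (SE 0.17, edgeR adjusted p = 0.00696). In females, controls at 179, 184, 202, 209 and 226 CPM were separated from mice at 5 mg/kg at 348, 425, 428 and 464 CPM, a log2 fold change of 1.06 (SE 0.17, edgeR adjusted p = 3.85e-05). The difference between the sexes in this response was 0.37 (SE 0.24, edgeR adjusted p = 0.643).

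Acadl, the long-chain acyl-CoA dehydrogenase, showed a clear separation of the groups in both sexes. Control males had 55.7, 58.7, 80.6, 83.3 and 128 CPM, and males at 5 mg/kg had 209, 234, 254 and 268 CPM. Control females had 90.8, 94.4, 121, 122 and 129 CPM, and females at 5 mg/kg had 201, 248, 292 and 305 CPM. No mouse at 5 mg/kg overlapped the controls of its sex. The log2 fold changes were 1.57 (SE 0.21, edgeR adjusted p = 8.04e-07) in males and 1.23 (SE 0.21, edgeR adjusted p = 8.36e-05) in females.

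Acadm, the medium-chain acyl-CoA dehydrogenase, was measured by 3 probes, which allows its response to be read more than once from the same livers. With the probe of most counts, control males had 360.0, 377, 398, 556 and 609.7 CPM and males at 5 mg/kg had 1159.5, 1218, 1332 and 1343 CPM. Control females had 382, 427, 465, 494 and 540.1 CPM and females at 5 mg/kg had 923, 1022, 1225 and 1439 CPM. The groups stood well apart, and the highest control of either sex, at 609.7 CPM, lay far below the lowest mouse at 5 mg/kg, at 923 CPM. The other 2 probes rose as far, with log2 fold changes of 1.56 (SE 0.19) and 1.64 (SE 0.19) in males and 1.43 (SE 0.19) and 1.63 (SE 0.19) in females, and edgeR's adjusted p ranged from 2.1e-08 to 1.06e-06 over the 3 probes and both sexes.

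Acads, the short-chain acyl-CoA dehydrogenase, had the largest estimated difference between the sexes in its response to 5 mg/kg. Control males ranged widely, at 36.4, 83.1, 103, 119 and 138 CPM, and males at 5 mg/kg at 98.6, 103, 119 and 139.6 CPM overlapped them, for a log2 fold change of 0.26 (95% interval -0.24 to 0.76, edgeR adjusted p = 0.593). That value was 0.054 without control replicate 5, 0.126 without replicate 2 of the 5 mg/kg group and 0.399 without control replicate 3. Control females had 42.2, 78.5, 79.4, 86 and 123 CPM and females at 5 mg/kg 145, 159.8, 164 and 172 CPM. The female groups did not overlap, and the log2 fold change was 0.97 (SE 0.25, edgeR adjusted p = 0.0132). A call in females and none in males does not show that the sexes differ, and the test of that difference gave 0.71 (SE 0.35, edgeR adjusted p = 0.466), with an unadjusted p under 0.05 that fails the adjustment over all probes.

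RefSeq promoter windows, from 250 bases before to 50 bases from the start of the transcript (GRCm38.p6), were found for 9 of the 10 members, all but Decr1. They were searched on both strands for the hexamer AGGTCA, the core that nuclear receptors of the PPAR and RXR group bind, and for its direct repeat AGGTCANAGGTCA with up to 2 mismatches. The hexamer occurred in 2 of the 9 windows, those of Acadm and Acadvl, and in 16.3% of the 32851 windows of all genes. The direct repeat occurred in 0 of the 9 windows and in 3.86% of all windows. A match of letters is not a binding site, and no match says only that these letters are not in this window. Both windows are shown because they hold the hexamer, in capitals, that the other 7 windows lack. Acadl, Hadha, Hadhb, Eci1 and Etfdh, whose windows lack it, were called higher in both sexes at 5 mg/kg too. A relation between the hexamer and the change was not tested. Acadm lies on the minus strand at chr3:153944594-153944893, and the hexamer reads on the strand opposite to the gene. Acadvl lies on the minus strand at chr11:70015379-70015678, and the hexamer reads on the strand of the gene.
Acadm: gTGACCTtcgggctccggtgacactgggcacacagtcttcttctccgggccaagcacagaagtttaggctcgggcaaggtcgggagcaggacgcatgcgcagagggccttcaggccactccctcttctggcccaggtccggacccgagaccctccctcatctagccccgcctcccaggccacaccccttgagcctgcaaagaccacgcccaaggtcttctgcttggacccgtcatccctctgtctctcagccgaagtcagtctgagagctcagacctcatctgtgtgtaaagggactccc
Acadvl: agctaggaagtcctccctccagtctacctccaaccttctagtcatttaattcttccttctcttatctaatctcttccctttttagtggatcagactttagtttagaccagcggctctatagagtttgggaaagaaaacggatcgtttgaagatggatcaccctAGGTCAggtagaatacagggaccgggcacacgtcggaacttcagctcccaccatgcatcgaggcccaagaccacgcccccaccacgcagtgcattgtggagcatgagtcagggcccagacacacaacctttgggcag

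Hadha and Hadhb encode the α and β subunits of the trifunctional protein, the membrane-bound complex that carries out the hydratase, dehydrogenase and thiolase steps for long-chain substrates. Control males had 207, 281, 309, 322 and 399.7 CPM of Hadha and males at 5 mg/kg had 499.9, 675, 713 and 781 CPM. Control females had 295, 317, 331, 339 and 379 CPM and females at 5 mg/kg had 653, 774, 779.7 and 855 CPM. No mouse at 5 mg/kg overlapped its controls, and edgeR gave log2 fold changes of 1.135 (SE 0.15, adjusted p = 6.76e-07) in males and 1.21 (SE 0.15, adjusted p = 3.34e-07) in females. The Hadha probe with fewer counts gave 1.07 (SE 0.26) and 0.97 (SE 0.26), also called in both sexes (edgeR adjusted p = 0.00582 and 0.0212), although its groups overlapped.

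Hadhb had a higher log2 fold change than Hadha with its main probe, a difference that was not tested. Control males had 26.8, 27, 28.4, 36.1 and 38.3 CPM and males at 5 mg/kg had 85.9, 100.2, 131 and 131 CPM, a log2 fold change of 1.84 (SE 0.23, edgeR adjusted p = 2.01e-07). Control females had 28.2, 28.4, 30.2, 32.9 and 41.4 CPM and females at 5 mg/kg had 86.3, 101, 105 and 118 CPM, a log2 fold change of 1.67 (SE 0.23, edgeR adjusted p = 1.74e-06). The groups were separated in both sexes. The other Hadhb probe gave 1.66 (SE 0.22) in females, close to the main probe, but 1.12 (SE 0.22, edgeR adjusted p = 0.000398) in males, with 95% intervals of 0.68 to 1.56 for this probe and 1.37 to 2.31 for the main one. The difference between the probes was not tested, and with the other probe the male value lay beside that of Hadha.

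The genes of both subunits lie head to head on chromosome 5. Hadha starts at position 30154980 on the minus strand and Hadhb at 30155253 on the plus strand, 273 bases away, so that their promoter windows share 228 bases read from opposite strands. The Hadhb window at chr5:30155003-30155302 is shown on the plus strand because these neighbors rose together, with the bases shared with the Hadha window in capitals. Neither the hexamer nor the direct repeat occurred in either window.
Hadhb: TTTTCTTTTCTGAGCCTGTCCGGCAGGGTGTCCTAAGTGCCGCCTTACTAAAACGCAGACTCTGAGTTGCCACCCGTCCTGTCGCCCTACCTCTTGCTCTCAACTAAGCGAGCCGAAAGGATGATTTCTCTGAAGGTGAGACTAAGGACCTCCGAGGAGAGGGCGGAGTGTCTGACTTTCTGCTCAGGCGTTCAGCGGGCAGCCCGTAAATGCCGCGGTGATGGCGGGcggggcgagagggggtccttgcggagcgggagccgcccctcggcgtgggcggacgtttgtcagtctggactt

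Hadh, the hydroxyacyl-CoA dehydrogenase for medium- and short-chain substrates, was not called in either sex. Control males had 79.3, 84.3, 93.7, 97.6 and 107 CPM and males at 5 mg/kg had 81.9, 112, 127 and 140.3 CPM. Control females had 147, 160.0, 168, 171 and 172 CPM and females at 5 mg/kg had 141, 177, 179 and 227 CPM. The groups overlapped in both sexes, and the log2 fold changes were 0.32 (95% interval -0.12 to 0.76, edgeR adjusted p = 0.406) and 0.15 (95% interval -0.29 to 0.58, edgeR adjusted p = 1). Without the mice under 5000000 counts the male value was 0.034. The upper ends lay below the lowest estimate of a called member in females, 0.97 for Acads, but not in males, 0.68 for Acadvl.

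Decr1 and Eci1 act on unsaturated fatty acids, Decr1 as the dienoyl-CoA reductase and Eci1 as an isomerase that shifts the unsaturated bond into the position the spiral can use. Control males had 183, 215, 225, 275 and 325 CPM of Decr1 and males at 5 mg/kg had 741, 748, 767 and 883 CPM. Control females had 253, 272, 279, 320.1 and 363 CPM and females at 5 mg/kg had 669.7, 710.0, 821 and 919.8 CPM. No values overlapped, and with SE of 0.18 and 0.17 the adjusted p was 3.22e-09 in males and 3.34e-07 in females by edgeR.

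Eci1 had the largest log2 fold change of the 10 genes in both sexes at 5 mg/kg. Control males had 43.9, 46.7, 57, 58.2 and 59.3 CPM and males at 5 mg/kg had 194, 199.97, 275 and 276 CPM, a log2 fold change of 2.16 (SE 0.20, edgeR adjusted p = 3.06e-10). Control females had 55, 63.1, 63.7, 76.6 and 93.1 CPM and females at 5 mg/kg had 223, 246, 293 and 299.9 CPM, a log2 fold change of 1.92 (SE 0.20, edgeR adjusted p = 4.82e-09). No mouse at 5 mg/kg overlapped the controls of its sex. The Eci1 probe with fewer counts gave 2.07 (SE 0.42) in males and 2.30 (SE 0.42) in females and was called in both (edgeR adjusted p = 0.000719 and 0.000226).

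Etfdh encodes the oxidoreductase that takes electrons from the electron transfer flavoprotein to ubiquinone. Control males had 17.2, 39.6, 40.9, 49.97 and 61.3 CPM and males at 5 mg/kg had 79.1, 84.7, 85.5 and 90.5 CPM, a log2 fold change of 1.02 (SE 0.27, edgeR adjusted p = 0.00947). Control females had 28, 32.2, 34.3, 37.2 and 45.8 CPM and females at 5 mg/kg had 62.8, 73.1, 95.7 and 121 CPM, a log2 fold change of 1.31 (SE 0.26, edgeR adjusted p = 0.000987). All mice at 5 mg/kg were higher than all controls of their sex.

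**Figure D2:**
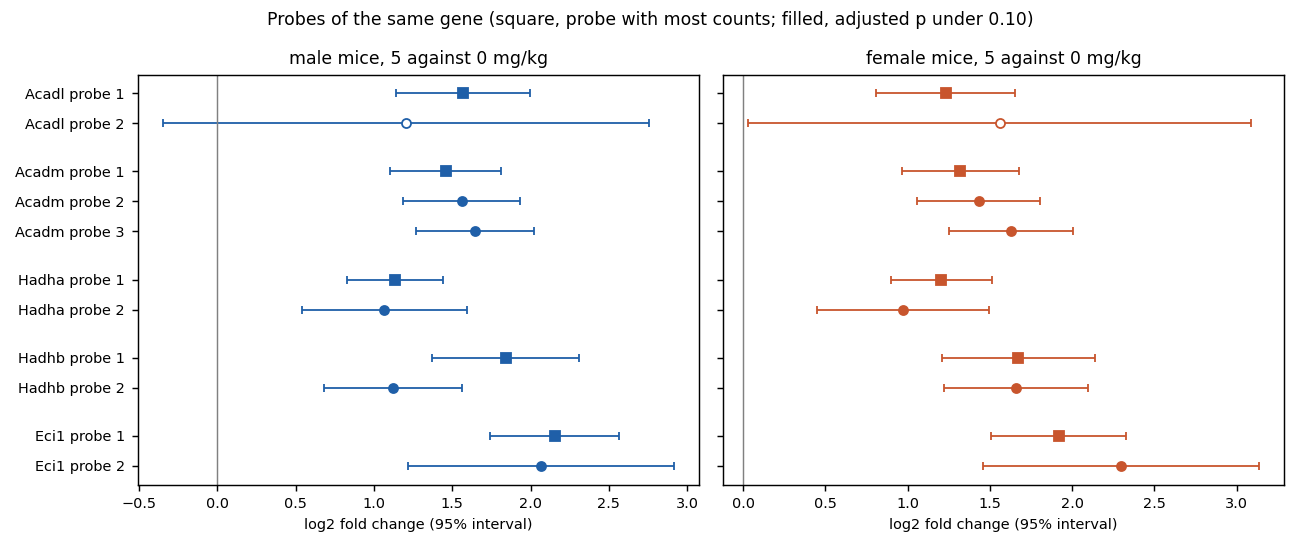
Log2 fold change at 5 mg/kg against 0 mg/kg (x axis, with 95% interval) for each probe of the 5 members with more than 1 probe, males on the left and females on the right. Squares mark the probe with the most counts and filled symbols an adjusted p under 0.10, and the male Hadhb probes, at 1.84 and 1.12, lie farthest apart among the called pairs.

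The remaining probe of a member, the Acadl probe with few counts, was not called in either sex. It had 0, 0, 3.4 and 33.4 CPM in males at 5 mg/kg, which gave a log2 fold change of 1.21 with a wide error (SE 0.77, edgeR adjusted p = 0.362). In females its groups did not overlap, with 3.56 to 10.1 CPM in controls and 12.2 to 22.4 CPM at 5 mg/kg, and the log2 fold change was 1.56 (SE 0.76, edgeR adjusted p = 0.386).

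At 0.5 mg/kg 9 of the 10 log2 fold changes were above 0 in each sex, and Hadh was at -0.017 in males and -0.045 in females. In males 5 of the 10 genes were called higher, against 0.382% of all probes, and 0 lower, against 0.242%. These were Eci1 at 1.44 (SE 0.19, edgeR adjusted p = 6.03e-06), Decr1 at 0.88 (SE 0.17, adjusted p = 0.00297), Hadha at 0.64 (SE 0.14, adjusted p = 0.0251), Acadm at 0.68 (SE 0.17, adjusted p = 0.0511) and Acadl at 0.77 (SE 0.20, adjusted p = 0.0784), all on the log2 scale. For 4 genes, Acadvl, Hadha, Decr1 and Eci1, every male at 0.5 mg/kg lay above every control, as did 0.652% of the probes. Eci1 showed the widest gap as a ratio, with 118, 122, 132, 139 and 208 CPM at 0.5 mg/kg against a highest control of 59.3 CPM. The count of 5 fell to 3 when control replicate 2, control replicate 5, or replicate 3 or 4 of the 0.5 mg/kg group was left out, and to 2 without control replicate 3.

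In females at 0.5 mg/kg 0 of the 10 genes were called by edgeR, where 0.108% of the probes were called higher and 0.00539% lower, but 7 had an unadjusted p under 0.05, all of them higher. Over all probes 4.33% had such a p in either direction. DESeq2 called 4 in females and 8 in males, so the count at this dose rested on the test used. Over all probes no alternative called more than 56 higher in females and 169 in males, beside 20 and 71 in the fit reported. The values themselves lay above the controls for 4 genes in females, as for 1.52% of the probes. For Hadha, females at 0.5 mg/kg had 428, 443, 502 and 532 CPM against a highest control of 379 CPM, and for Acadvl 265, 279.6, 282 and 386 CPM against a highest control of 226 CPM. The other 2 were Eci1, at 100.5, 116, 123 and 137 CPM against at most 93.1 CPM, and Etfdh, at 52.5, 55.9, 58.4 and 62.1 CPM against at most 45.8 CPM. The median log2 fold change of the 10 genes was 0.70 in males and 0.50 in females, beside medians of -0.07 and -0.03 over all genes tested.

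**Figure D3:**
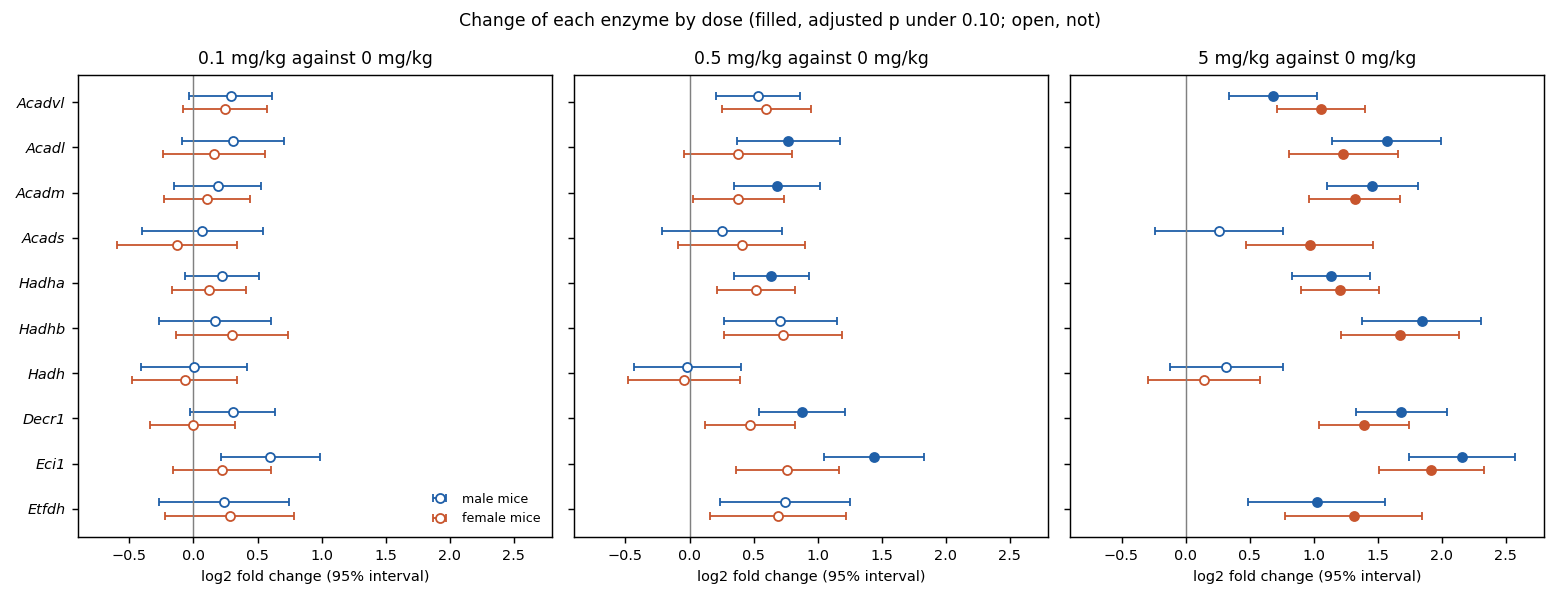
Log2 fold change of each enzyme against the control of the same sex (x axis, with 95% interval), 1 panel per dose, males in blue and females in orange. Filled points had an adjusted p under 0.10, as for 0 genes at 0.1 mg/kg, 5 in males at 0.5 mg/kg, and 9 in females and 8 in males at the highest dose.

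At 0.1 mg/kg 0 of the 10 genes were called in either sex by edgeR or by DESeq2, and edgeR called 0% of the probes. 1 value had an unadjusted p under 0.05, that of Eci1 in males, with a log2 fold change of 0.60 (SE 0.19, edgeR adjusted p = 0.624). Over all probes 7.14% in males and 2.38% in females had such a p at this dose. Males at 0.1 mg/kg had 52.2, 68.9, 76.3, 95.3 and 109 CPM of Eci1, and 4 of the 5 were above the highest control at 59.3 CPM. For 0 of the 10 genes did the whole group at 0.1 mg/kg lie above its controls, as 0.334% of the probes did in males and 0.781% in females. All 10 log2 fold changes were above 0 in males and 7 of the 10 in females, with medians of 0.23 and 0.14 and a range of -0.13 to 0.60, and the 3 doses share their controls, so these signs are not independent of those at higher doses. The means of 9 of the 10 genes rose at each step of dose in males, with Hadh as the exception, and of 7 of the 10 in females, with Acads, Hadh and Decr1 as the exceptions.

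The step from 0.5 to 5 mg/kg raised 6 of the 10 genes in each sex, against 3.16% of the probes called higher in males and 0.635% in females. No member was called lower, where 5.57% of the probes were in males and 0.84% in females. The 6 genes were in both sexes Acadl, Acadm, Hadha, Hadhb, Decr1 and Eci1. The log2 fold changes over this step ran from 0.50 for Hadha to 1.13 for Hadhb in males and from 0.69 for Hadha to 1.15 for Eci1 in females. Acadvl in males was not called over the step, with 358 ± 33 CPM (SD, n = 5) at the lower and 397 ± 122 CPM (SD, n = 4) at the higher dose, a difference of 0.15 on the log2 scale (SE 0.17, edgeR adjusted p = 0.7) that was -0.042 without replicate 2 of the 5 mg/kg group. In males 3 of the 6 calls, those of Acadl, Hadha and Eci1, were lost when the mice under 5000000 counts were left out, which leaves 2 males at 5 mg/kg. Their log2 fold changes were then 0.58, 0.55 and 0.66, beside 0.80, 0.50 and 0.72 with all mice. Hadha in males was also lost without replicate 1 or 2 of the 0.5 mg/kg group or replicate 3 or 4 of the 5 mg/kg group, at 0.38 to 0.46. In females Acadl and Hadhb were each lost without replicate 1, 3 or 4 of the 0.5 mg/kg group or replicate 3 of the 5 mg/kg group, Acadl also without replicate 4 of the 5 mg/kg group, and Hadha without replicate 1 of the 0.5 mg/kg group. The values lay at 0.77 to 0.84 for Acadl, 0.80 to 0.94 for Hadhb and 0.64 for Hadha in those fits, beside 0.85, 0.94 and 0.69 with all mice.

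In males the genes called at 5 mg/kg were the same without the shallow libraries. Without the 4 mice under 5000000 counts, which leaves 2 males at 5 mg/kg, 8 of the 10 genes were called. The median log2 fold change of all 10 was 1.34, beside 1.30 with all mice. Acadvl was then at 0.97, beside 0.68, and Hadh at 0.034, beside 0.32. The part of depth in these values was not tested.

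Summed over the 10 genes, the members took 1652 ± 286, 1942 ± 274, 2628 ± 343 and 4017 ± 339 CPM in males, from 0 mg/kg up to the highest dose, and 1786 ± 208, 1911 ± 213, 2434 ± 359 and 4174 ± 550.25 CPM in females (SD, n = 4 or 5). The lowest sum at 5 mg/kg was 3619.8 CPM in males and 3529 CPM in females, above the highest control sum of 2005 and 2108 CPM. The CPM of different probes were not compared as levels of their genes.

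Untreated males and females differed in 1 member. Hadh was higher in control females than in control males, at 164 ± 10.6 against 92.3 ± 10.9 CPM (SD, n = 5 each), with a log2 difference of 0.83 (SE 0.21, edgeR adjusted p = 0.0191), where 1.36% of all probes were called higher in females and 1.24% lower. The lowest female, at 147 CPM, lay above the highest male, at 107 CPM, a separation that 2.46% of the probes showed. Acadl at 0.45 (SE 0.20, adjusted p = 0.347) and Eci1 at 0.41 (SE 0.19, adjusted p = 0.402) were higher in females at an unadjusted p under 0.05 only, and the other 7 had edgeR adjusted p from 0.524 to 1. Over all probes 10.9% had an unadjusted p under 0.05 in either direction.

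The responses of males and females were compared by the interaction of sex and dose. No member was called at any of the 3 doses by edgeR or DESeq2, where edgeR called 0.463% of the probes as responding more positively in females and 0.167% as responding more positively in males at 5 mg/kg, 0.00539% in each direction at 0.5 mg/kg and 0% at 0.1 mg/kg. Over all probes 10.7% at 5 mg/kg and 5.13% at 0.5 mg/kg had an unadjusted p under 0.05 for this interaction. Besides Acads at 5 mg/kg, given above, 1 value had an unadjusted p under 0.05, that of Eci1 at 0.5 mg/kg, with a log2 difference of -0.68 (95% interval -1.24 to -0.12, edgeR adjusted p = 0.861). The log2 fold changes it compares were 0.76 for females and 1.44 for males. At 5 mg/kg the difference between the sexes for Hadha was 0.07 (SE 0.21, edgeR adjusted p = 0.996) and for Acadm -0.14 (SE 0.25, edgeR adjusted p = 0.965).

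Within each sex the members moved together from mouse to mouse to different degrees. The Pearson correlation of a member's log2 CPM, centered within sex, with the mean of the other 9 members over the 37 mice was 0.965 for Decr1, 0.959 for Acadm and 0.95 for Hadha, and lay between 0.847 and 0.937 for Acadvl, Acadl, Hadhb, Eci1 and Etfdh. It was 0.558 for Acads and 0.269 for Hadh. The mice share the dose groups, so these correlations describe the dose response as well as the spread within groups and carry no test.

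Among the genes whose centered log2 CPM was most like the mean of the 10 members over the 37 mice were Ehhadh at a Pearson r of 0.955, Hsd17b11 at 0.943, Retsat at 0.941 and Fabp1 at 0.928. Ehhadh encodes an enzyme of peroxisomal β-oxidation and Fabp1 the fatty acid binding protein of liver. Their log2 fold changes at 5 mg/kg in males were 5.51 (SE 0.30) for Ehhadh, 3.17 (SE 0.20) for Hsd17b11, 2.71 (SE 0.27) for Retsat and 1.65 (SE 0.19) for Fabp1. In females they were 5.03 (SE 0.29), 3.04 (SE 0.19), 3.31 (SE 0.27) and 1.77 (SE 0.19) in the same order.

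Further genes of the same pathway were counted beside the members. A list of 11 further genes of the spiral, its auxiliary steps and the electron transfer flavoprotein had 6 called higher and 0 lower in each sex at 5 mg/kg, with medians of 0.55 in males and 0.54 in females. Eci2, a further enoyl-CoA isomerase, reached 1.19 (SE 0.17, edgeR adjusted p = 2.15e-06) in males and 1.60 (SE 0.17, edgeR adjusted p = 4.82e-09) in females. Etfb, a subunit of the electron transfer flavoprotein, reached 0.68 (SE 0.15, edgeR adjusted p = 0.00242) and Acad12 1.23 (SE 0.29, edgeR adjusted p = 0.00373) in males. In females Ech1 reached 2.36 (SE 0.44, edgeR adjusted p = 0.000366) and Acad11 0.59 (SE 0.16, edgeR adjusted p = 0.0209). These genes were named by the smallest p in each sex, so being named in 1 sex does not show a difference between the sexes. From 0 to 5 mg/kg the female means rose from 189 to 271 CPM for Etfb and from 33.1 to 67.9 CPM for Acad12. The male means rose from 9.86 to 17.9 CPM for Ech1 and from 1135 to 1661 CPM for Acad11. The list was chosen by pathway, as were the lists that follow, with earlier results of these data known. The counts of each stand beside the 4.21% and 2.26% of all probes called higher and the 8.49% and 2.26% called lower in males and females.

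Some genes of the carnitine shuttle and of peroxisomal β-oxidation were called higher too. Of 5 genes of the carnitine shuttle, which brings acyl groups into the matrix, 3 were called higher in each sex at 5 mg/kg, namely Slc25a20 at 1.43 and 1.61, Crat at 4.43 and 2.56, and Cpt2 at 1.137 and 1.09 in males and females. The Crat values have wide errors (SE 0.73 and 0.66). They stand against few counts in controls, with means of 1.92 CPM in males, the lowest at 0, and 4.63 CPM in females. Of 12 genes of peroxisomal β-oxidation, which shortens very long chains outside mitochondria, 8 were called higher and 1 lower in males and 8 higher and 0 lower in females, with medians of 1.45 and 1.28. The gene of this list called lower in males was Pecr, named after its value was seen, at -1.82 (edgeR adjusted p = 0.00104). Whether Pecr acts in β-oxidation itself was not examined here. Of 12 genes for the mitochondrial oxidation of branched-chain and odd-chain acyl-CoA, 0 were called higher in either sex and 3 lower in males, Acadsb, Mut and Pccb, and 1 lower in females, Acadsb, where 8.49% and 2.26% of all probes were called lower. Acadsb, the dehydrogenase for short branched chains, fell by 0.75 (SE 0.23, edgeR adjusted p = 0.0363) in males and by 0.82 (SE 0.23, edgeR adjusted p = 0.0325) in females on the log2 scale. The median of that list was -0.18 in males and -0.14 in females.

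Genes downstream of acetyl-CoA were counted in the same way. Of 4 genes of ketone body synthesis 2 were called higher in males and 1 in females. Acat1, a thiolase that joins acetyl-CoA units, was called in both sexes, at 0.56 (SE 0.21, edgeR adjusted p = 0.0855) in males and 0.80 (SE 0.20, edgeR adjusted p = 0.0149) in females. Of 15 genes of the citric acid cycle 3 were called higher in each sex, with medians of -0.03 and 0.32, and Suclg1 reached 0.50 and 0.88. Of 21 nuclear-encoded subunits of the respiratory chain 5 were called higher in males and 4 in females, with medians of 0.22 and 0.34 and none called lower. Ndufb8 in males at 0.65 and Uqcrfs1 in females at 1.01 are examples. In the other sex the means rose as well from 0 to 5 mg/kg, from 170 to 215 CPM for Ndufb8 in females and from 36.4 to 57.2 CPM for Uqcrfs1 in males.

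**Figure D4:**
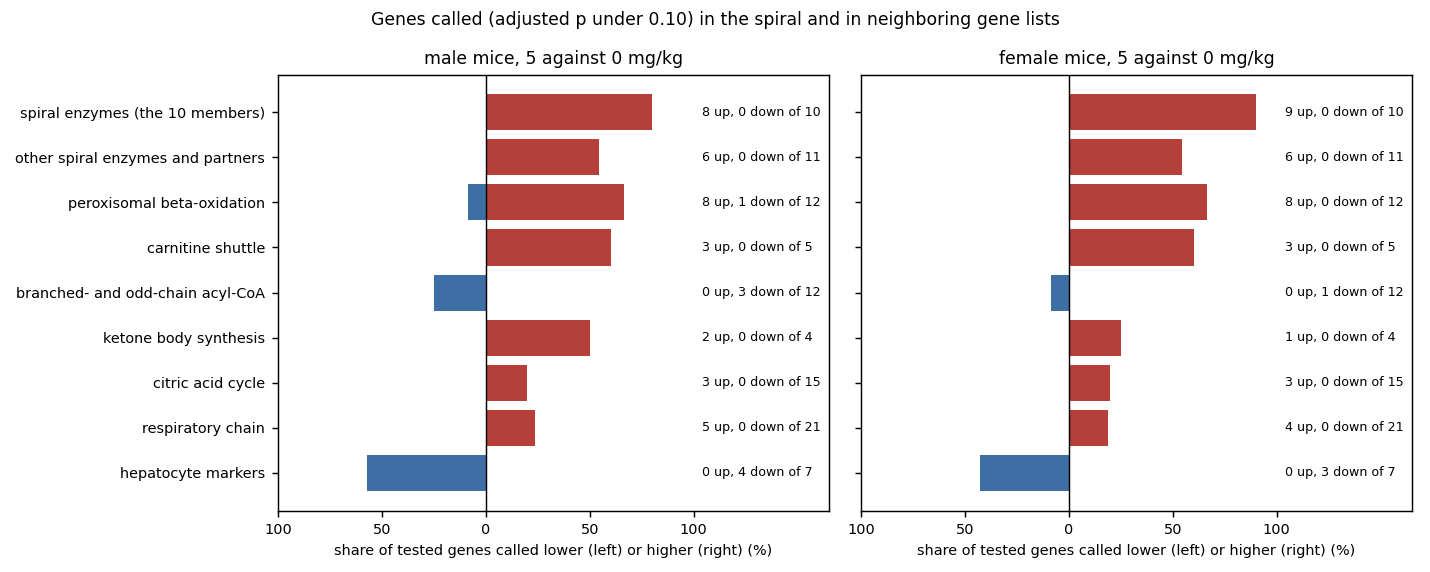
Share of the tested genes of each list called lower (blue, left) or higher (red, right) at 5 mg/kg against 0 mg/kg, in percent (x axis), with the counts beside each bar, males on the left and females on the right. Among the lists drawn the 10 members have the highest share called higher in both sexes, 8 and 9 of 10, and the hepatocyte markers are called lower only, 4 and 3 of 7. Members and lists were chosen with earlier results of these data known, so this order is a description only.

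Among markers of other cell types, Kdr and Fabp4 were called at 5 mg/kg. Of 8 macrophage, 8 stellate and 6 lymphocyte and blood cell markers tested, 0 were called in either sex at 5 mg/kg by edgeR. Of 6 endothelial markers Kdr was lower in males at -0.95 (SE 0.33, edgeR adjusted p = 0.0708), and 0 were called in females. The summed level of the 6 in males was 231 to 330.6 CPM (median 303.6) at 5 mg/kg and 279 to 399 CPM (median 298.2) in controls. In females it was 241.3 to 312.2 CPM (median 280.8) at 5 mg/kg and 309.4 to 334.5 CPM (median 330.3) in controls. Of 6 adipocyte markers Fabp4 had enough counts to be tested and was higher at 3.37 (SE 0.50, edgeR adjusted p = 5.89e-06) in males and 2.72 (SE 0.49, edgeR adjusted p = 0.000207) in females. The Fabp4 groups did not overlap in males. They did in females, with 20.1 to 265.8 CPM at 5 mg/kg and 14.2 to 30.4 CPM in controls. Lep, Cfd and Retn were at 0 in all mice at 5 mg/kg, and Plin1 and Adipoq were at 0 in the 4 males, 2 of which were under 5000000 counts, but not in all 4 females. Over the 37 mice Plin1 had 32 counts, Adipoq 41, Lep 7, Cfd 68 and Retn 16, so values of 0 at 5 mg/kg say little about these genes.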

How the data were processed

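Liver sections of 37 mice in 8 groups of sex and dose were assayed by TempO-Seq. The authors deposited whole-number counts of reads per probe, without normalization. Their processing notes name bcl2fastq 2.17.1.14 and Bowtie, and the alignment settings and genome build are not given in the sources used here. The authors left out 3 further mice, which were not analysed here. Counts were analyzed in R 4.3.3 with edgeR 4.0.16: filterByExpr over the 8 groups left 18570 of 30146 probes, which were scaled by TMM, and fitted by a quasi-likelihood model with 1 mean per group over the 37 mice. Comparisons set each dose against the same sex at 0 mg/kg, 5 with 0.5 mg/kg, control females with control males, and the sexes by interaction. P-values were adjusted by Benjamini-Hochberg over all probes and called under 0.10, the study's threshold. Errors are the SE of the unshrunk coefficient, and 95% intervals use the t distribution with the fitted degrees of freedom.

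The 16 member probes were found by the symbol that opens the probe name. Named genes were the 10 members, up to 3 genes per list and sex with the smallest p at 5 mg/kg, and the 5 genes most like the members' mean (log2 CPM with a prior count of 2), and some of these named genes are not reported here. The members and lists were chosen with earlier results of these data known. Alternatives were DESeq2 size factors, no filter, each sex apart, DESeq2 1.42.0, summed probes, a threshold of 0.05, a robust fit, thinned counts, no mouse under 5000000 counts, and leaving out each mouse. The fit was tested on simulated data. Replicates are separate mice, and 68 pairs within groups differed by more than sampling noise (chi-square per degree of freedom of at least 21.7). Promoter sequences are from RefSeq (GRCm38.p6). Total counts ran from 2101495 to 13878254, and counting error was not compared with the spread between mice for single probes.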

Additional observations from a re-analysis of the deposited data

Results flagged for a closer look

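Each of the 10 genes in each of the 8 groups was checked for a mouse that stood apart by Dixon's criterion at the 95% level, and 6 of these 80 groups of 4 or 5 mice had such a mouse, where chance gives about 1 in 20. Acadvl in females at 0.5 mg/kg had its highest value, 386.3 CPM, in replicate 2, and the other 3 mice lay between 264.6 and 281.9 CPM. Hadhb in males at 0.1 mg/kg had its lowest value, 14.54 CPM, in replicate 4, against 37.21 to 44.64 CPM in the others. Etfdh had its lowest value in the same mouse, 19.07 CPM against 51.52 to 62.07 CPM, and its library held 4012015 counts. Hadh in males at 0.5 mg/kg had its lowest value, 28.66 CPM, in replicate 2, against 93.23 to 115.2 CPM, and this library held 2608954 counts. Hadhb in males at 0.5 mg/kg had its lowest value, 37.32 CPM, in replicate 5, against 52.7 to 56.94 CPM. Eci1 in males at 0.5 mg/kg had its highest value, 208.1 CPM, in replicate 4, against 117.7 to 139.2 CPM. Of the 6 values, 3 came from the 2 libraries named with their totals, each under 5000000 counts, and the part of depth in them was not tested.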

How the results depend on the processing

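The counts of members called at 5 mg/kg, 8 in males and 9 in females, were the same under every alternative run, the omission of single mice included, and no member was called lower in any comparison. At 0.5 mg/kg the counts moved, with 5 members higher in males and 0 in females in the fit reported. Each sex fitted apart gave 2 in males and 2 in females, DESeq2 gave 8 and 4, probes summed per gene gave 1 in females, and a threshold of 0.05 gave 3 in males. Smaller moves occurred in males too. Acadvl was called with DESeq2 size factors, with thinned counts and without the mice under 5000000 counts. Hadhb was called with summed probes, and Acadl was lost with thinned counts. Omission of single mice gave 2 to 5 in males and 0 to 1 in females, the 1 without control replicate 1. For 5 against 0.5 mg/kg, leaving out the mice under 5000000 counts gave 3 in males in place of 6, and omission of single mice gave 5 to 6 in males and 3 to 6 in females. Other alternatives moved single genes over this step. In males Hadha and Eci1 were lost with each sex fitted apart, and Hadha without the filter. In females Hadhb was lost with thinned counts, and DESeq2 called Acadvl as well. Between control females and control males omission gave 1 to 2, the 2 without male control replicate 1. The cause of these changes was not tested. Fits that left out mice also held fewer mice, and the part of that was not tested either.

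Of 120 member values over the 12 comparisons, 35 passed the threshold and 0 of these changed sign. Of the 85 others 26 changed sign under at least 1 alternative, and none of them was larger than 0.335 on the log2 scale. Hadh at 0.5 mg/kg in males, at -0.017, became 0.0042 with DESeq2 size factors, 0.0090 with DESeq2, 0.054 with thinned counts and 0.20 without the mice under 5000000 counts, and ranged from -0.12 to 0.20 when single mice were left out. Hadh at 0.5 mg/kg in females, at -0.045, ranged from -0.093 to 0.023 when single mice were left out. No paired analysis was done, because each mouse belonged to a single dose group and the labels pair no mice between groups. The replicate numbers used here follow the order of the samples within each group and are not part of the labels. Depth limits the probes with few counts, such as the Acadl probe at 0 in 2 males at 5 mg/kg.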
